A study of Homo sapiens with 9 samples.

Results

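Transcripts of 47 genes that mark myeloid maturation or encode granule proteins were read in human cells labelled NB4. The genes were chosen by name, and 45 of them have a row among the 26830 genes of the files. NCF4 and LILRB1 were not analysed here. NB4 is an established line derived from an acute promyelocytic leukaemia, although the labels give the cell type as acute monocytic leukaemia. Cultures received DMSO (the solvent control), FB23 or FB23-2 for 48 h, and each group holds 3 libraries of polyadenylated RNA, 9 in all. The series title gives inhibition of FTO, an RNA demethylase, as the purpose of both compounds. Doses and structures are not in the labels. The labels do not say whether replicates were separate cultures, so the p-values measure the spread between these libraries, which may be technical.

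As a myeloid progenitor matures, it loses progenitor receptors such as KIT and FLT3 and passes through the promyelocyte, which makes the proteases and peroxidase of the primary granules in a short burst. Later stages turn on receptors for antibodies, complement and bacterial products, the subunits of the NADPH oxidase that produces superoxide, and the calcium-binding S100 proteins of neutrophils and monocytes. The line NB4 is known from the literature as a model in which retinoic acid drives promyelocytes towards granulocytes.

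Promoter sequences are shown for 5 of the genes: CSF3R, FCGR1A and CSF2RA were higher with FB23-2, MS4A3 was lower with both compounds, and CTSG was silent. FCGR1A and CSF2RA passed the filter on low counts only through the FB23-2 libraries. MS4A3 passed it in all 3 libraries of DMSO alone. The directions of these 3 genes are therefore descriptions. The sequences are RefSeq's (GRCh38.p14), cover the bases before the RefSeq start that also lie before the gene start in GENCODE release 29, and run 5′ to 3′ on the gene's strand. Capitals mark GAGGAA, the core read by PU.1, and TTNNGNAA, a loose C/EBP pattern, on either strand. They cover chr1:36483315-36483564 (minus strand) for CSF3R, chr1:149782444-149782670 (plus strand) for FCGR1A, chrX:1268564-1268799 (plus strand) for CSF2RA, chr11:60056415-60056586 (plus strand) for MS4A3 and chr14:24576261-24576500 (minus strand) for CTSG.
CSF3R: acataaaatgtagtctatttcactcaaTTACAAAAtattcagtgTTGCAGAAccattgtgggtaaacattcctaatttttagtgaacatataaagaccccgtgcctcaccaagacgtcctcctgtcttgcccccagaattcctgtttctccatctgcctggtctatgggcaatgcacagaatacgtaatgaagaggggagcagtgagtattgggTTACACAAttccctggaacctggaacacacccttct
FCGR1A: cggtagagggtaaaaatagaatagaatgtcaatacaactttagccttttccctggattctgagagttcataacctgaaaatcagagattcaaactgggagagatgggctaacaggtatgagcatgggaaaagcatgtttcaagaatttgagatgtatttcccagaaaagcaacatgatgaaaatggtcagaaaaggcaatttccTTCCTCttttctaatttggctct
CSF2RA: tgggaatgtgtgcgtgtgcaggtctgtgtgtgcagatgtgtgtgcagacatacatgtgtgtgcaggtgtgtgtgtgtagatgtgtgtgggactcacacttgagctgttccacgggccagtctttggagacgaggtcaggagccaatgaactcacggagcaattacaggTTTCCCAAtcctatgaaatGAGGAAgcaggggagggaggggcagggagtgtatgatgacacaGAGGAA
MS4A3: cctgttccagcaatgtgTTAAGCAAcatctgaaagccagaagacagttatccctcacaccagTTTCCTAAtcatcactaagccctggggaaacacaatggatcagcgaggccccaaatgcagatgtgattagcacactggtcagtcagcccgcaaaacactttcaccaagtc
CTSG: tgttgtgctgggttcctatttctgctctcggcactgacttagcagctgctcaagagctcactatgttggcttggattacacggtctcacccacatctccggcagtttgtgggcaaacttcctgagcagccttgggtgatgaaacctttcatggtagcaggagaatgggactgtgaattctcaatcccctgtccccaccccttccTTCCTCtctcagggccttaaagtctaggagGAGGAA
The patterns were present in silent and in expressed genes. GAGGAA occurred 2 times before the silent CTSG and 2 times before CSF2RA. TTNNGNAA occurred 3 times before CSF3R and 3 times in the window of MS4A3, where 1 match lies beyond the printed part. Of the 45 genes, 36 have a RefSeq window. In the 250 bases before the start, 52.8% of those 36 windows held GAGGAA, against 23.4% of the first windows of all 27195 genes and 22.5% of those of tested genes. For TTNNGNAA the shares were 50%, 33.6% and 22.6%. A match describes letters only.

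Most of the 45 genes, 28 in all, had no count or too few to be tested. No count was found in any of the 9 libraries for 9 genes, which allows up to 0.0156 CPM (the count scaled to library size), with counting error only. They were the progenitor markers CD34 and FLT3, the T cell costimulator CD86, the lectin ficolin-1 (FCN1), the calgranulin S100A12, the peroxidase gene MPO, the protease gene CTSG, and the eosinophil ribonuclease genes RNASE2 and RNASE3. A further 7 genes had 1 to 3 counts over all libraries, namely the receptors KIT, FPR1, FPR2 and TLR2, the calgranulin S100A8, the neutrophil elastase gene ELANE and the protease inhibitor CST7. Another 12 had 4 to 50 counts and were too low to be tested. Only 17 of the 45 genes passed the filter on low counts.

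**Figure D1:**
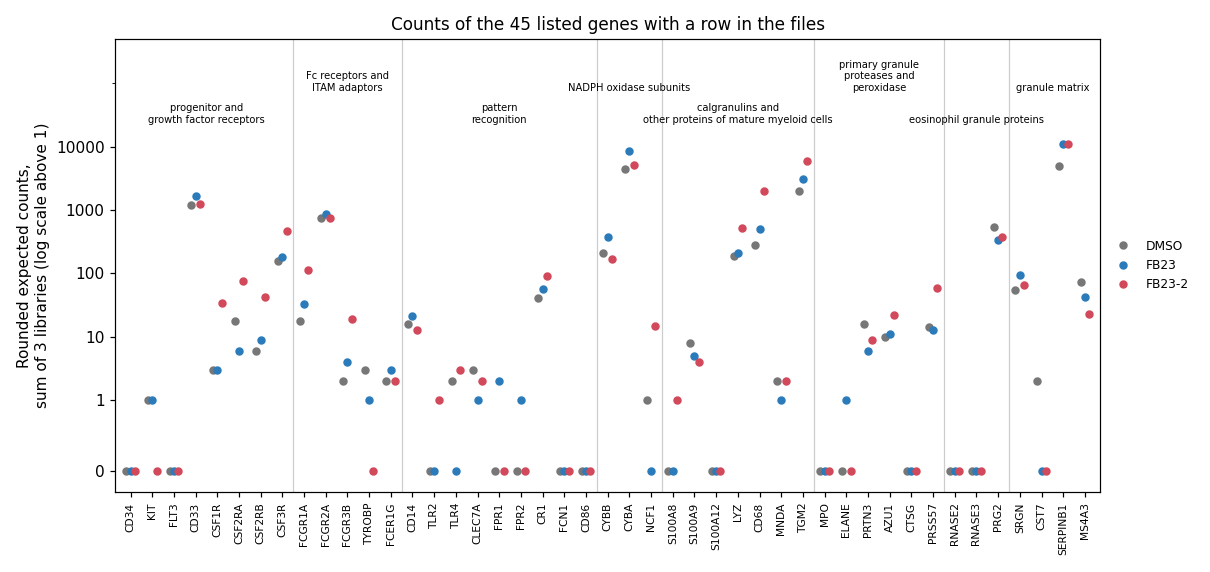
Rounded expected counts summed over the 3 libraries of each group for the 45 genes, ordered by role (vertical axis on a log scale above 1 count; depths differ between groups). The 9 silent genes lie at 0 in all groups, whereas CYBA, SERPINB1 and TGM2 have the highest counts in every group.

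Totals ran from 12360291 to 38410750 expected counts per library. The 7 monocyte markers, with FCN1 and S100A12 at 0, summed to 5.33 to 6.28 TPM (a level scaled for gene length and library size) with DMSO, 3.40 to 4.71 with FB23 and 12.04 to 13.4 with FB23-2. Most of each sum came from LYZ, at means of 4.35, 2.91 and 11.4 TPM in that order, so the sums do not describe the markers as a set. The 5 promyelocyte markers, with MPO and CTSG at 0, stayed at or below 1.77 TPM in every library. The promyelocytic origin of NB4 was thus not matched by these markers. In contrast, 12 markers of red cell precursors, none at 0, summed to 28010 to 29610 TPM with DMSO, 31870 to 34190 with FB23 and 4290 to 4824 with FB23-2. All 12 were called lower with FB23-2 (edgeR), where 41.3% of all tested genes were called lower. With FB23, 3 of them were called higher and 1 lower, where the shares over all tested genes were 12.3% and 11.2%. The 5 T and B cell markers, with MS4A1 at 0, summed to 4.87 to 6.86, 4.15 to 5.17 and 30.6 to 35.4 TPM in the same order, almost all of it from CD3D. The part of these shifts in the results below was not tested, and in bulk RNA fewer cells of a type and less RNA per cell cannot be told apart.

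Among the 17 tested genes, most differences were seen with FB23-2. Against DMSO, 10 were higher with FB23-2 and 5 lower, where 82.6% of all 13365 tested genes were called, 41.3% higher and 41.3% lower (edgeR quasi-likelihood test, Benjamini-Hochberg adjusted p under 0.05). With FB23, 2 were higher and 5 lower, where 23.5% of all tested genes were called, 12.3% higher and 11.2% lower. Their median log2 fold change was 0.86 with FB23-2 and -0.19 with FB23, beside 0.01 and 0.00 over all tested genes. These counts are no support for a trend, because 4 of the 17 (CSF2RA, CSF2RB, FCGR1A and PRSS57) passed the filter only through the FB23-2 libraries and MS4A3 passed it in all 3 libraries of DMSO alone, so they had to differ. Of the other 12, all but CR1 lay above the filter level of 0.548 CPM in all 9 libraries. CSF2RA, FCGR1A, LYZ, CD68, CR1, TGM2 and PRSS57 overlap an annotated gene on the opposite strand, and as the strand setting of the counting is not stated, reads of such pairs cannot be told apart. Both compounds were compared with the same DMSO libraries.

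**Figure D2:**
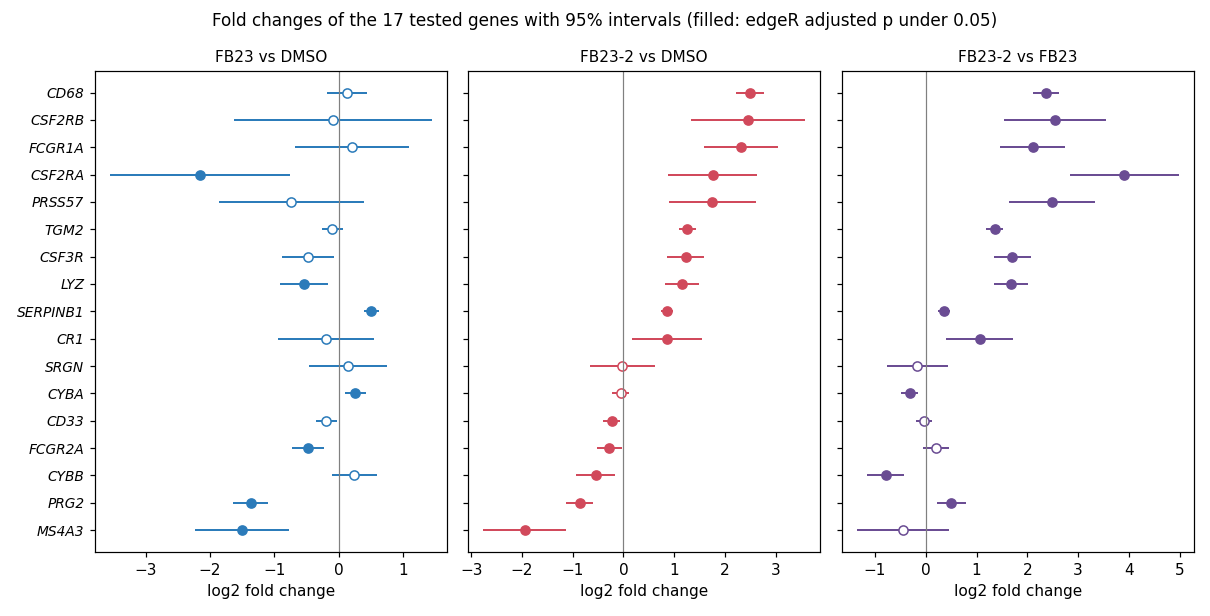
Log2 fold changes (horizontal axes) of the 17 tested genes in the 3 comparisons, with 95% intervals from the edgeR fit. Filled points passed an adjusted p under 0.05, which 2 genes higher and 5 lower did with FB23, and 10 higher and 5 lower did with FB23-2.

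Among the receptors for growth factors and the progenitor markers, the receptor for G-CSF rose with FB23-2, while CD34 and FLT3 were silent. Both chains of the GM-CSF receptor passed the filter only through the FB23-2 libraries, so their higher level there is a description. CSF3R, the G-CSF receptor of neutrophils (chr1:36466043-36483278, GRCh38), stood at 3.60, 2.41 and 3.45 CPM under DMSO (libraries are given in the order of their replicate numbers throughout), at 2.29, 2.32 and 2.18 under FB23, and at 7.68, 7.77 and 6.62 under FB23-2. All FB23-2 libraries were the highest, and all FB23 libraries lay below those of DMSO. The rise with FB23-2 was 2.35-fold (log2 1.23 ± 0.16 SE, adjusted p = 1.81e-06). With FB23 the log2 fold change of -0.48 ± 0.18 missed the threshold (adjusted p = 0.0713), and it passed without DMSO replicate 2 (-0.64, edgeR adjusted p = 0.0255).

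CSF2RA, the binding chain of the GM-CSF receptor, was measured at 0.549, 0.168 and 0.370 CPM in DMSO, 0.164, 0.0979 and 0.0270 with FB23 and 1.16, 1.03 and 1.52 with FB23-2. The 3 groups did not overlap in CPM, at 18, 6 and 75 counts in all. CSF2RA stood higher with FB23-2 than with DMSO by log2 1.76 ± 0.41, a direction that the filter on low counts had set. The fall with FB23, by 2.15 ± 0.66 (adjusted p = 0.0252), rested on few counts and was lost without DMSO replicate 1 (log2 fold change -1.73, edgeR adjusted p = 0.149), DMSO replicate 3 (-2.13, 0.0684), FB23 replicate 2 (-2.41, 0.0549) or FB23 replicate 3 (-1.55, 0.128). In TPM the FB23 and DMSO libraries overlapped.

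CSF2RB, the signalling chain that the receptors for GM-CSF, interleukin-3 and interleukin-5 share, had 6 counts in DMSO, 9 with FB23 and 42 with FB23-2. Every FB23-2 library (0.569 to 0.772 CPM) lay above every DMSO library (0.112 to 0.123 CPM). The difference was log2 2.45 ± 0.52, and its direction was set by the filter on low counts. CSF1R, the M-CSF receptor of monocytes and macrophages, was too low for the test, with 3, 3 and 34 counts. Its count ratio of FB23-2 to DMSO was 9.27, with a 95% counting interval of 2.91 to 47.2, and the FB23-2 libraries (16, 6 and 12 counts) were above the DMSO libraries (2, 1 and 0).

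CD33, a sialic acid-binding receptor found from the myeloid progenitor onwards (chr19:51225064-51243860), was the most abundant receptor of the set per length, at 44.0 ± 0.656 TPM under DMSO, 38.8 ± 0.801 under FB23 and 44.4 ± 1.501 under FB23-2 (SD over the 3 libraries). In CPM it stood at 24.3, 23.3 and 23.1 in DMSO, 19.2, 20.9 and 21.4 with FB23 and 19.96, 20.4 and 19.99 with FB23-2. The scales gave different pictures for FB23-2, which lay below DMSO in CPM and overlapped it in TPM. The call with FB23-2 (log2 fold change -0.23 ± 0.07, edgeR adjusted p = 0.00571) was lost with upper-quartile factors (-0.06, adjusted p = 0.455) and with library totals (-0.08, adjusted p = 0.281). With FB23 the value of -0.19 ± 0.07 did not pass (edgeR adjusted p = 0.0522), and passed with the size factors of DESeq2 (-0.20, adjusted p = 0.042). The files count CD33 on a transcript of 6 exons that lacks the 381-base exon at chr19:51225218-51225598 of the 7-exon transcript.

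Among receptors for antibodies, FCGR1A and FCGR2A had enough counts to be tested, FCGR1A only through the FB23-2 libraries. FCGR1A, the high-affinity IgG receptor CD64 of monocytes and activated neutrophils (chr1:149782671-149792518), was found at 0.244, 0.505 and 0.308 CPM in DMSO, 0.492, 0.294 and 0.486 with FB23, and 1.85, 1.86 and 1.64 with FB23-2. DMSO and FB23 overlapped, and FB23-2 lay above both. FCGR1A stood 4.97-fold higher with FB23-2 than with DMSO (log2 2.31 ± 0.33), a direction that the filter on low counts had set. With FB23 it did not pass the edgeR test (log2 0.21 ± 0.41, 95% interval -0.66 to 1.08). Its close copy FCGR1B had 6, 16 and 36 counts in DMSO, FB23 and FB23-2, and reads may be split between the copies. Its opposite-strand neighbour is the histone gene HIST2H2BF.

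FCGR2A, the low-affinity IgG receptor CD32A, stood at 14.7, 15.5 and 13.8 CPM in DMSO, 8.77, 11.03 and 11.3 with FB23 and 11.9, 13.98 and 10.5 with FB23-2. The FB23 libraries were all below the DMSO libraries, and those of FB23-2 overlapped them. It fell by 0.47 ± 0.11 on the log2 scale with FB23 (edgeR adjusted p = 0.00575). The call as lower with FB23-2 (-0.28 ± 0.11, edgeR adjusted p = 0.0305) was lost in 7 of 13 alternatives, at adjusted p between 0.00621 and 0.395 over all of them, among them the leaving out of DMSO replicate 1 (-0.28, 0.0555), DMSO replicate 2 (-0.24, 0.0942), FB23-2 replicate 1 (-0.24, 0.109) or FB23-2 replicate 3 (-0.20, 0.123). FCGR3B, the neutrophil receptor CD16B, had 2, 4 and 19 counts in DMSO, FB23 and FB23-2, a count ratio of 7.77 for FB23-2 to DMSO (95% counting interval 1.87 to 68.8). The adaptors that Fc receptors and related receptors need for signalling were near 0, with 7 counts over 9 libraries for FCER1G, the common gamma chain, and 4 for TYROBP, also called DAP12.

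Of the 9 genes of the set for sensing of microbes, complement and costimulation, CR1 alone could be tested. CD14, the co-receptor for lipopolysaccharide on monocytes, had 16, 21 and 13 counts in DMSO, FB23 and FB23-2, of which 12 came from DMSO replicate 3. Its count ratio of FB23-2 to DMSO was 0.664, with a 95% counting interval of 0.294 to 1.47. TLR4, the lipopolysaccharide receptor, had 5 counts in all, TLR2, which recognises bacterial lipoproteins, had 1, and CLEC7A, the fungal glucan receptor dectin-1, had 6. The formyl peptide receptors FPR1 and FPR2, which guide neutrophils to bacteria, had 2 and 1. CR1, the complement receptor CD35, was measured at 0.732, 0.898 and 0.802 CPM in DMSO, 0.410, 1.05 and 0.540 with FB23 and 1.35, 1.66 and 1.46 with FB23-2. FB23-2 was above both other groups, which overlapped. The rise with FB23-2, by log2 0.86 ± 0.32 (edgeR adjusted p = 0.0191), was lost without DMSO replicate 1 (0.78, adjusted p = 0.0651), DMSO replicate 3 (0.84, 0.0505) or FB23-2 replicate 2 (0.78, 0.0612) and by the Wald test of DESeq2 (0.88, 0.065).

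The membrane subunits of the NADPH oxidase were both present, but the cytosolic subunit p47phox, encoded by NCF1, was close to 0. CYBA, the p22phox subunit that several NADPH oxidases share (chr16:88643283-88651152), was the most abundant gene of the set per length, at 333 ± 13.9 TPM in DMSO, 403 ± 29.2 with FB23 and 374 ± 14.9 with FB23-2 (SD, n = 3). In CPM it stood at 88.5, 83.0 and 89.8 in DMSO, 98.2, 96.2 and 117 with FB23 and 84.1, 88.3 and 78.4 with FB23-2. FB23 was above DMSO on both scales, whereas FB23-2 overlapped DMSO in CPM and was above it in TPM. CYBA rose by log2 0.26 ± 0.07 with FB23 (edgeR adjusted p = 0.0118), a call lost without DMSO replicate 2 (0.23, adjusted p = 0.0663), and did not pass with FB23-2 (-0.06 ± 0.07, 95% interval -0.21 to 0.09).

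CYBB, the catalytic gp91phox subunit of phagocytes, was found at 4.39, 4.38 and 3.45 CPM in DMSO, 5.57, 4.80 and 4.45 with FB23 and 2.55, 2.74 and 3.16 with FB23-2. The FB23-2 libraries were the lowest and those of FB23 the highest, without overlap in CPM. In TPM both compounds overlapped DMSO. CYBB was called lower with FB23-2 (log2 fold change -0.55 ± 0.17, edgeR adjusted p = 0.00779), and with upper-quartile factors that call was lost (-0.37, adjusted p = 0.0552). With FB23 it did not pass (0.25 ± 0.16, 95% interval -0.09 to 0.58). NCF1 had 1, 0 and 15 counts in DMSO, FB23 and FB23-2, with 6, 6 and 3 in the single FB23-2 libraries. The ratio of FB23-2 to DMSO was 12.3 (95% counting interval 1.89 to 516), and its copies NCF1B and NCF1C share reads with it.

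Of the proteins abundant in mature myeloid cells, CD68, LYZ and TGM2 rose with FB23-2, while the calgranulins had too few counts to be tested or none. CD68, a lysosomal membrane protein of macrophages that other cells also make (chr17:7579467-7582113), stood at 6.40, 4.99 and 5.61 CPM in DMSO, 5.41, 6.20 and 6.53 with FB23 and 33.2, 35.1 and 26.7 with FB23-2. FB23 overlapped DMSO, and each FB23-2 library was far above every other library. The rise was 5.62-fold (log2 2.49 ± 0.12, edgeR adjusted p = 1.69e-12), the largest with FB23-2 among the 17 tested genes, and it passed in all 13 alternatives. With FB23 the value was 0.13 ± 0.14 (95% interval -0.17 to 0.42).

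TGM2, the tissue transglutaminase that retinoic acid is known to induce in NB4 cells (chr20:38127387-38166578), stood at 43.1, 36.5 and 40.5 CPM in DMSO, 34.6, 35.9 and 40.7 with FB23 and 95.4, 98.9 and 92.6 with FB23-2. Here too FB23 overlapped DMSO and FB23-2 stood above both. The rise with FB23-2 was 2.39-fold (log2 1.26 ± 0.07, edgeR adjusted p = 9.82e-12), and with FB23 the log2 value was -0.10 ± 0.07 (95% interval -0.25 to 0.06).

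LYZ, the secreted enzyme lysozyme that cleaves bacterial walls (chr12:69348341-69354234), was measured at 3.47, 3.98 and 3.82 CPM in DMSO, 1.89, 2.74 and 2.81 with FB23 and 8.57, 8.80 and 7.59 with FB23-2. The 3 groups did not overlap, with FB23 the lowest and FB23-2 the highest. LYZ rose 2.21-fold with FB23-2 (log2 1.15 ± 0.15, edgeR adjusted p = 1.49e-06). Its fall with FB23, by 0.54 ± 0.17 (adjusted p = 0.0278), was lost without DMSO replicate 2 (log2 fold change -0.49, edgeR adjusted p = 0.0976), DMSO replicate 3 (-0.52, 0.0702) or FB23 replicate 1 (-0.44, 0.0575). S100A9, a subunit of calprotectin, had 8, 5 and 4 counts in DMSO, FB23 and FB23-2, its partner S100A8 had 1 count in all, and the nuclear protein MNDA of mature myeloid cells had 5.

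**Figure D3:**
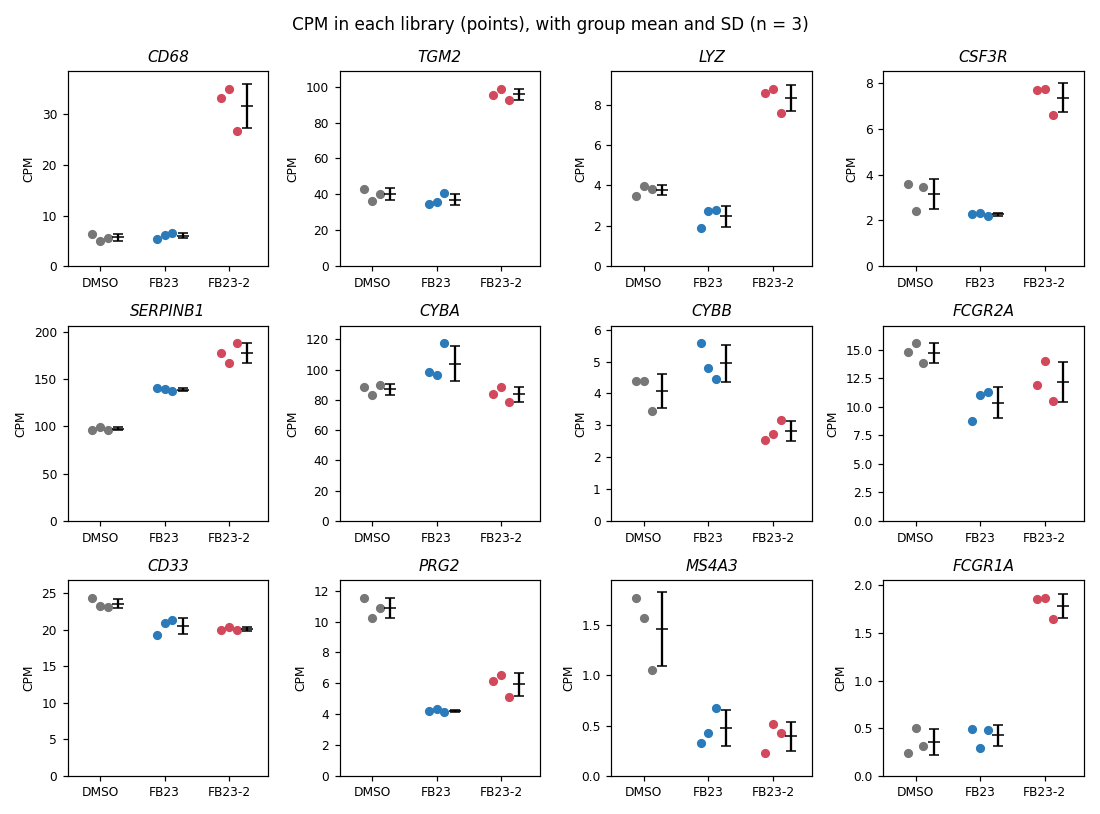
CPM (vertical axes, from 0) of 12 tested genes in each library, with the group mean and SD (n = 3) beside the points. CD68, TGM2, LYZ, CSF3R and FCGR1A are highest in all 3 FB23-2 libraries, SERPINB1 is higher with both compounds, and PRG2 and MS4A3 are lower with both. The directions of FCGR1A and MS4A3 are descriptions, because the filter on low counts set them.

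Of the primary granule genes, which promyelocytes transcribe strongly, PRSS57 alone was tested. PRSS57, a granule serine protease, had 14, 13 and 59 counts in DMSO, FB23 and FB23-2, and the FB23-2 libraries (0.725 to 1.12 CPM) did not overlap those of DMSO (0.244 to 0.308 CPM). PRSS57 stood higher with FB23-2 than with DMSO by log2 1.75 ± 0.39. That direction was set by the filter on low counts, which it passed only through the FB23-2 libraries. With FB23 it did not pass the edgeR test (-0.74 ± 0.53, 95% interval -1.85 to 0.37). PRTN3, the proteinase 3 gene, had 16, 6 and 9 counts, at most 0.76 TPM in any library. AZU1, which encodes the antimicrobial protein azurocidin, had 10, 11 and 22 counts, at most 1.77 TPM. Together with the 0 counts of MPO and CTSG and the 1 count of ELANE, the primary granule set was at trace level in all 3 groups.

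Of the eosinophil granule genes PRG2 was expressed, and it fell with both compounds, more with FB23. PRG2, the eosinophil major basic protein (chr11:57386794-57390657), stood at 11.5, 10.2 and 10.9 CPM in DMSO, 4.18, 4.31 and 4.13 with FB23 and 6.18, 6.52 and 5.10 with FB23-2. All 3 groups were apart, with DMSO the highest and FB23 the lowest. PRG2 fell by 1.37 ± 0.12 on the log2 scale with FB23 (edgeR adjusted p = 9.70e-07) and by 0.86 ± 0.12 with FB23-2 (adjusted p = 2.42e-06). The 2 eosinophil ribonuclease genes were silent.

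MS4A3, a membrane protein of granulocyte and monocyte progenitors (chr11:60056587-60071128), was measured at 1.77, 1.57 and 1.05 CPM in DMSO, 0.328, 0.424 and 0.674 with FB23 and 0.232, 0.518 and 0.425 with FB23-2. Both compounds lay below DMSO and overlapped each other. MS4A3 stood lower than in DMSO by log2 1.5 ± 0.34 with FB23 and 1.95 ± 0.38 with FB23-2, with 74 counts in DMSO, 42 and 23. These differences are descriptions, because it passed the filter on low counts in all 3 libraries of DMSO alone.

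SERPINB1, an inhibitor of the granule proteases elastase, proteinase 3 and cathepsin G (chr6:2832332-2842006), was the single tested gene that rose with both compounds. It stood at 96.8, 99.2 and 96.3 CPM in DMSO, 140, 139.7 and 137 with FB23 and 178, 167 and 188 with FB23-2. The groups were fully apart in the order DMSO, FB23, FB23-2. The rise was 1.43-fold with FB23 (log2 0.51 ± 0.05, edgeR adjusted p = 2.08e-06) and 1.82-fold with FB23-2 (log2 0.86 ± 0.05, adjusted p = 1.5e-11). The proteases that it inhibits were at or near 0 in the same libraries. SRGN, the proteoglycan core of granules, overlapped between all groups, at 1.06 ± 0.345 CPM in DMSO, 1.19 ± 0.102 with FB23 and 1.05 ± 0.149 with FB23-2 (SD, n = 3). Its 95% intervals were -0.45 to 0.74 with FB23 and -0.64 to 0.60 with FB23-2, so changes within those limits are not excluded.

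The compounds were then compared directly, as 1 pair at the same time, with p-values adjusted over all tested genes and doses not given in the sources used here. With FB23-2 against FB23, 11 of the 17 genes were higher and 2 lower, where 81.5% of all tested genes were called, 40.4% higher and 41.1% lower (edgeR). The largest difference was that of CSF2RA, at log2 3.91 ± 0.50, on 75 against 6 counts. That value is a description, because CSF2RA, CSF2RB, FCGR1A and PRSS57, all among the 11, passed the filter only through the FB23-2 libraries. CD68 differed by 2.36 ± 0.11 (edgeR adjusted p = 1.44e-12), CSF3R by 1.71 ± 0.16 (2.50e-08), LYZ by 1.69 ± 0.15 (9.66e-09) and TGM2 by 1.35 ± 0.07 (3.05e-12). CSF3R and LYZ thus lay further from FB23 than from DMSO. SERPINB1 was higher with FB23-2 by 0.35 ± 0.05 (edgeR adjusted p = 2.06e-06), and PRG2 by 0.50 ± 0.13 (adjusted p = 0.00134), since it had fallen further with FB23.

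The oxidase subunits were the 2 genes lower with FB23-2 than with FB23, CYBB by -0.80 ± 0.16 (edgeR adjusted p = 0.000246) and CYBA by -0.32 ± 0.07 (adjusted p = 0.000394). With upper-quartile factors the call of CYBA was lost (-0.15, edgeR adjusted p = 0.05), and in TPM its libraries overlapped. No difference passed for 4 genes. The 95% interval was -0.18 to 0.10 for CD33, -0.74 to 0.41 for SRGN, -1.34 to 0.44 for MS4A3 and -0.04 to 0.43 for FCGR2A. FCGR2A was called higher with upper-quartile factors (0.36, edgeR adjusted p = 0.00644), with library totals (0.32, 0.0114) and without FB23-2 replicate 3 (0.27, 0.036). For FB23-2 against DMSO, the median log2 fold change of all genes shifted from its value under TMM scaling by 0.17 (upper-quartile factors), 0.15 (library totals) and 0.25 (deposited TPM). Differences of about that size, such as those of CD33, FCGR2A and CYBA with FB23-2, therefore depended on the scale.

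Other genes of the same pathways were read from 6 lists. The filter on low counts set the direction for some of their genes, whose differences are therefore descriptions: EPX passed it only through the DMSO libraries, PTPN6, TLR5, TLR9 and EGR2, among others, only through those of FB23-2, CD36 through no FB23-2 library and LGALS3 through no DMSO library. Of 21 granule genes beyond the set, 8 had no count, 9 were too low and 4 were tested, namely EPX, GUSB, CTSC and HEXA. EPX, the eosinophil peroxidase, stood at 2.41 CPM in DMSO, 0.407 with FB23 and 0.256 with FB23-2. The lysosomal enzyme GUSB rose with both (log2 0.20 ± 0.05, adjusted p = 0.00582, and 1.01 ± 0.05, 1.46e-12), and CTSC, the cathepsin that activates granule proteases, fell by 1.5 ± 0.04 with FB23-2 (1.66e-15). Of 10 other oxidase genes 3 were tested. RAC2, the blood cell GTPase that activates the oxidase, rose by 1.46 ± 0.06 with FB23-2 (edgeR adjusted p = 1.03e-13).

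Among 12 transcription factors of myeloid cells outside the CEBP family, 10 were tested. With FB23-2 8 were higher, EGR2 among them, and 2 lower, where 41.3% of all tested genes were called higher and 41.3% lower (edgeR). With FB23 1 was higher and 3 lower, where the shares over all tested genes were 12.3% and 11.2%. SPI1, which encodes PU.1, rose by log2 0.98 ± 0.10 with FB23-2, from 19.6 to 38.6 CPM (edgeR adjusted p = 8.10e-08), and was called lower with FB23, at 15.5 CPM (-0.31 ± 0.11, adjusted p = 0.0448), although its libraries overlapped those of DMSO. EGR1, an immediate-early factor, rose with both (0.77 ± 0.06 and 2.12 ± 0.06, adjusted p = 1.29e-07 and 5.73e-16), and MYB, a factor of progenitors, fell with both (-0.46 ± 0.05 and -1.80 ± 0.05, 8.83e-06 and 2.34e-15).

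Of 22 other monocyte and macrophage genes, 5 were silent, 9 too low and 8 tested. With FB23-2 6 were higher and 1 lower, and with FB23 1 was higher and 2 lower. Over all tested genes, 41.3% were called higher and 41.3% lower with FB23-2, and 12.3% and 11.2% with FB23 (edgeR). ICAM1, an adhesion molecule, rose by 2.87 ± 0.07 with FB23-2, from 33.4 to 244 CPM (edgeR adjusted p = 1.30e-16). LGALS3, the lectin galectin-3, stood at 0.192 CPM in DMSO, 0.375 with FB23 and 2.99 with FB23-2. CD36, a scavenger receptor, had 37 counts in DMSO and 36 with FB23 but 0 with FB23-2. Among 17 other genes of Toll-like receptor signalling, 11 were tested, with 6 higher, TLR5 and TLR9 among them, and 3 lower with FB23-2 and 0 higher and 3 lower with FB23. TLR6, which pairs with TLR2 to recognise bacterial lipopeptides and was named after its values were seen, was over the filter level in all 9 libraries and rose by 0.76 ± 0.14 with FB23-2, from 5.53 to 9.45 CPM (edgeR adjusted p = 0.000106). IRAK1, a kinase of that pathway, fell by 0.51 ± 0.04 with FB23 (edgeR adjusted p = 8.73e-07) and by 1.77 ± 0.05 with FB23-2 (5.34e-16). Of 21 genes of Fc receptor signalling, 18 have a row and 11 were tested, with 4 higher and 3 lower with FB23-2 and 1 higher and 3 lower with FB23. With FB23-2 these were 36.4% higher and 27.3% lower, both below the shares over all tested genes. PTPN6, the phosphatase SHP-1 that restrains such signalling, stood at 0.414, 0.346 and 2.63 CPM in DMSO, FB23 and FB23-2. The phospholipase PLCG2 rose by 1.87 ± 0.10 with FB23-2 (edgeR adjusted p = 4.05e-12). The kinases BTK and LYN fell by 1.05 ± 0.05 and 0.94 ± 0.05 (adjusted p between 1.08e-12 and 1.01e-11 for the falls). List medians with FB23-2 ran from -0.71 for granule genes to 1.32 for transcription factors, beside 0.01 for all tested genes.

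**Figure D4:**
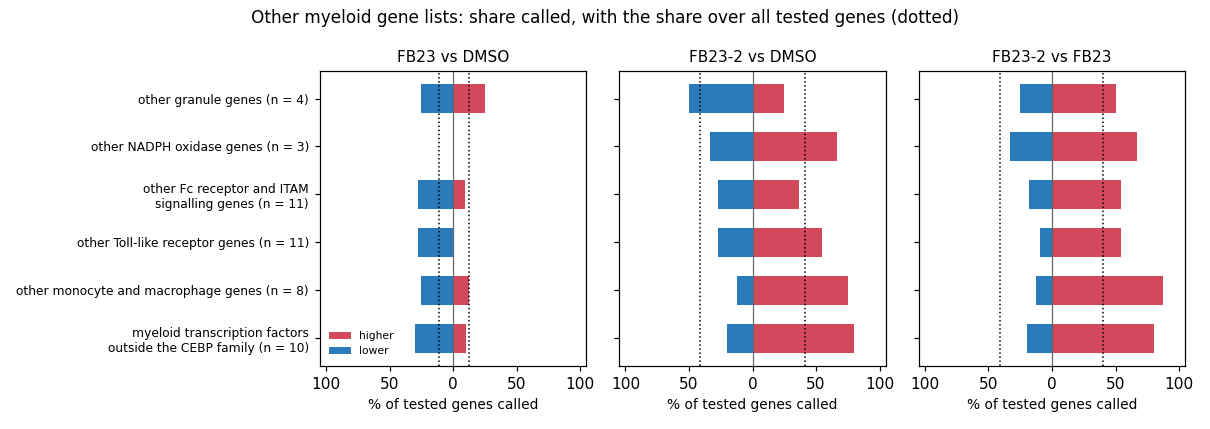
Share of tested genes called higher (right) or lower (left) in the 6 lists of other myeloid genes, in percent, for the 3 comparisons, with the number tested beside each list name. Dotted lines mark the share over all tested genes, 12.3% and 11.2% with FB23 and 41.3% and 41.3% with FB23-2.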

How the data were processed

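Polyadenylated RNA of 9 libraries was made into libraries with a directional kit, per the labels' protocols. The deposited files hold, for each gene, the expected count, TPM and FPKM in the layout of RSEM, per the file headers. RSEM 1.2.31 and the build GRCh38 are named in the submitters' processing notes. FPKM was not used. Each gene has 1 RefSeq transcript in the deposited files. The sources used here do not give the aligner, annotation release, strand setting or filters. Transcript lengths in bases are in the other deposited columns.

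Expected counts were rounded (7.75% of values were not whole) and modelled in R 4.3.3 with edgeR 4.0.16: filterByExpr (minimum count 10, minimum total 15), TMM factors, 1 quasi-likelihood fit of all 9 libraries with 1 mean per group, two-sided F tests and Benjamini-Hochberg adjustment over 13365 genes. Standard errors come from the F statistic. CPM uses the TMM scaling. The common biological coefficient of variation was 5.12%. Alternatives were DESeq2 size factors, upper-quartile factors, library totals, no filter, the Wald test of DESeq2 1.42.0, a block for the replicate number, fits of only the 6 libraries compared, deposited TPM, and leaving out each library. The 47 genes, the lists and the role groups were chosen with earlier results of these data known. Library values are given for members called in at least 1 comparison with a mean of at least 1 CPM, and counts for the others; CSF2RA, FCGR1A, CR1 and MS4A3, below that level, were given library values after their values were seen. Of the other lists, the 2 highest and 2 lowest called genes in each comparison were open to naming. Intervals are 95%, and a count of 0 is given a limit of 3 counts. The count-ratio intervals and that limit cover counting error only, because no molecular identifiers are described and PCR copies are then not separate molecules. Intervals of fold changes come from the edgeR fit and include its estimated spread between libraries. On simulated data with 200 changed genes of 13139, FB23-2 against DMSO recovered 80.3%, 94.0% and 98.5% of log2 changes of 0.5, 1 and 2, with 7.14% of calls false. The changed genes were drawn from those with a mean over 1 CPM, and FB23 was left equal to DMSO. These rates do not carry over to lower genes, nor to these data, where 82.6% of tested genes were called with FB23-2 against DMSO. Gene positions are from GENCODE release 29 (GRCh38).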

Additional observations from a re-analysis of the deposited data

How the results depend on the processing

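Single-gene values of the 17 tested genes were recomputed under each alternative, and most kept their direction and call; those that did not are given beside the gene. The number called lower with FB23-2 against DMSO, 5, was 2 under upper-quartile factors and 3 under scaling by library totals, and the number lower with FB23-2 against FB23, 2, was 1 with upper-quartile factors. CD33 with FB23-2 was reversed in deposited TPM (log2 ratio 0.0123 against -0.23). The cause was not tested. Leaving out 1 library gave 1 to 2 genes higher and 3 to 5 lower with FB23, 10 to 11 higher and 4 to 5 lower with FB23-2, and 11 to 12 higher and 2 to 2 lower for FB23-2 against FB23. A level count does not mean the same genes. CR1 lost its call with FB23-2 without DMSO replicate 1, DMSO replicate 3 or FB23-2 replicate 2, yet the number higher stayed at 10 or more. CYBA was lost without DMSO replicate 2, which left 1 gene higher with FB23, and CSF2RA and LYZ were lost without DMSO replicate 3, which left 3 lower.

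With no filter on low counts, CSF1R, FCGR3B and NCF1 were added to the genes higher with FB23-2, giving 13 against DMSO and 14 against FB23. Over all genes that setting moved the calls with FB23 from 1647 higher and 1497 lower to 2120 and 1088. For FB23-2 the share over all genes without the filter is not given here. With the filter, 41.3% of all tested genes were called higher against DMSO and 40.4% against FB23 (edgeR). With the replicate block the counts were 2 higher and 5 lower with FB23, 10 and 5 with FB23-2 and 11 and 2 between the compounds, and no call changed. The deviations of same-numbered libraries correlated between -0.185 and 0.0856, and 0 of 9 pairs exceeded 0.1. Of the 9 libraries, 5 nevertheless correlated best with a library of their own number. These values do not decide whether the numbers mark pairs. CSF2RA with FB23 could not be tested on the 6 libraries compared, because it did not pass their filter. The 28 genes that were not tested had no count or too few, and no fold change is given for them by a fit.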

Other observations

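Eosinophil and basophil genes beside PRG2 were at low levels. Of 9 markers listed for these cells, CLC, RNASE2, RNASE3 and CPA3 were at 0 and MS4A2 and IL5RA had 1 to 3 counts in all. The 3 that were tested were PRG2, EPX and HDC, of which EPX and HDC passed the filter on low counts only through the DMSO libraries and so had to be lower elsewhere. HDC, which makes histamine, had 44 counts in DMSO, 24 with FB23 and 9 with FB23-2. The summed level of the 9 markers was 15.5 to 16.4 TPM in DMSO, 5.71 to 6.14 with FB23 and 8.45 to 10.3 with FB23-2, most of it from PRG2. Between the compounds PRG2 was higher with FB23-2, whereas EPX and HDC stood at -0.85 ± 0.42 and -0.99 ± 0.60 and did not pass (edgeR adjusted p = 0.0735 and 0.138).

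CR1L, a gene next to CR1 with similar sequence, had 320, 372 and 229 counts in DMSO, FB23 and FB23-2, beside 41, 57 and 91 for CR1. How reads were divided between the pair was not tested.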
